A study of Mus musculus with 6 samples.

Results

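The miRNAs described here are those of the miR-10 and miR-196 families, whose genes lie inside the HOX gene clusters. They were chosen by name: mmu-miR-10a-5p, mmu-miR-10b-5p, mmu-miR-196a-5p and mmu-miR-196b-5p. Of these 4 names, 3 were matched among the 598 miRNA names of the count table, and mmu-miR-196b-5p was not analysed here. Where a name had several entries, 1 for each precursor hairpin, the entry with the highest total was used.

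Small RNA was sequenced from exosomes, vesicles that cells secrete, of RAW264.7 cells, a mouse macrophage line with a wild type genotype according to the labels. In the M0-exo group, 3 libraries came from cells kept in normal culture for 24 h with no cytokine. In the M2-exo group, 3 libraries came from cells given IL-4 together with IL-13 for 24 h, each at 20 ng/mL, cytokines that drive macrophages toward the alternatively activated (M2) state. Both groups were then moved to serum-free medium, from which the exosomes were collected, and the comparison asked which miRNAs differed between the 2 kinds of exosomes. All 6 libraries carry the same batch label, 1. The model is a single cell line, and nothing in the labels says that the replicates were separate cultures, so p-values measure the spread between these libraries, which may be technical.

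HOX genes encode transcription factors that give cells their position along the body axis, and the miR-10 and miR-196 genes lie among them and are transcribed in similar domains of the embryo. miR-10 is known for its place next to the HOX4 genes. miR-196 is known for directing cleavage of the Hoxb8 mRNA, which it pairs with along nearly its whole length. In blood, HOX genes and these miRNAs are best known from progenitors and leukemias, and miR-10a also from the restraint of inflammatory signalling in endothelial cells.

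The sequences are shown because members of a pair can be told apart by 1 base only, which matters for how their reads are counted. Each mature miRNA is written 5′ to 3′ with its seed, bases 2 to 8, in capitals.
mmu-miR-10a-5p: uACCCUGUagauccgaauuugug
mmu-miR-10b-5p: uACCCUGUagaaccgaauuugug
mmu-miR-196a-5p: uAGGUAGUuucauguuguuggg
mmu-miR-196b-5p: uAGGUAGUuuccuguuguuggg
mmu-miR-99a-5p: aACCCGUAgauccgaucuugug
mmu-let-7c-5p: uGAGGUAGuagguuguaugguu
Counted from the 5′ end, miR-10a-5p differs from miR-10b-5p by U12A, and 22 of 23 bases are identical. miR-196a-5p differs from miR-196b-5p by A12C, with 21 of 22 bases identical. Both differences lie outside the seed, so each pair shares its seed. The seed ACCCUGU belonged to 2 names of the table, miR-10a-5p and miR-10b-5p. The relative miR-99a-5p shares the run GUAGAUCCGA with miR-10a-5p, at bases 7 to 16 in miR-10a-5p and bases 6 to 15 in miR-99a-5p, so that the common core is shifted and the seeds differ. The miR-196 seed AGGUAGU recurs in let-7c-5p, again shifted, at bases 3 to 9. In all, 9 names of the table held these 7 bases, 7 of them named let-7 beside miR-98-5p, of the same family, and miR-196a-5p itself. The 7 named let-7 took 73.1% to 76.1% of the counts of a library.

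Sequences of the 8 names found in the table came from the table, and those of all 14 names followed were matched in the RefSeq table of GRCm38.p6, which gave miR-196b-5p. The count table carries no coordinates, and the submitters' processing notes name the build mm39, so the positions below are those of the GENCODE annotation of GRCm38 and are not mm39 positions. Mir10a lies at chr11:96317165-96317274 on the plus strand, between Hoxb5 and Hoxb4 and 992 bases before Hoxb4, outside both genes. Mir10b lies at chr2:74726070-74726137 on the plus strand, in an intron of transcripts of Hoxd3 and Hoxd4. Mir196b lies at chr6:52230081-52230165 on the minus strand, in an exon of 2 annotated Hoxa9 transcripts and in an intron of another.

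The mature miR-196a-5p has a pair of genes. Mir196a-1 lies at chr11:96265164-96265265 on the plus strand, between Hoxb13 and Hoxb9 and 6191 bases before Hoxb9. Mir196a-2 lies at chr15:102973350-102973434 on the plus strand, between Hoxc10 and Hoxc9 and in an intron of a Hoxc5 transcript. The hairpins are printed below around the mature miRNA, with 4 flanking bases on each side in capitals, because the flanks differ while the mature bases are the same.
Mir196a-1: GAAGuagguaguuucauguuguugggCCUG
Mir196a-2: GGCUuagguaguuucauguuguugggAUUG
A read that starts and ends where the mature miRNA does therefore holds no base by which it could be assigned to 1 of the 2 hairpins. The known target site in the 3′ UTR of Hoxb8, in exon 2 of 2 and 418 bases after the stop codon (chr11:96284888-96284909, plus strand, GRCm38), reads as follows, with the bases opposite the seed in capitals.
Hoxb8 site: cccaacaacaugaaACUGCCUa
Of its 22 bases, 21 form Watson-Crick pairs with miR-196a-5p and 1 forms a G:U pair. No mRNA was measured in these libraries.

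The 3 measured members differed widely in abundance, and miR-10a-5p took nearly all of their counts. Summed over the 6 libraries, miR-10a-5p had 26554 counts, miR-10b-5p had 44 and miR-196a-5p had 29. By their totals they ranked 25, 266 and 311 among 598 names. A library held 860204 to 1453348 counts with 1 entry per name, so a count of 0 allowed up to 3 counts, or 2.06 to 3.49 CPM (counts per 1000000 counts). Such limits, and the exact Clopper-Pearson 95% intervals given below, cover counting error only.

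**Figure D1:**
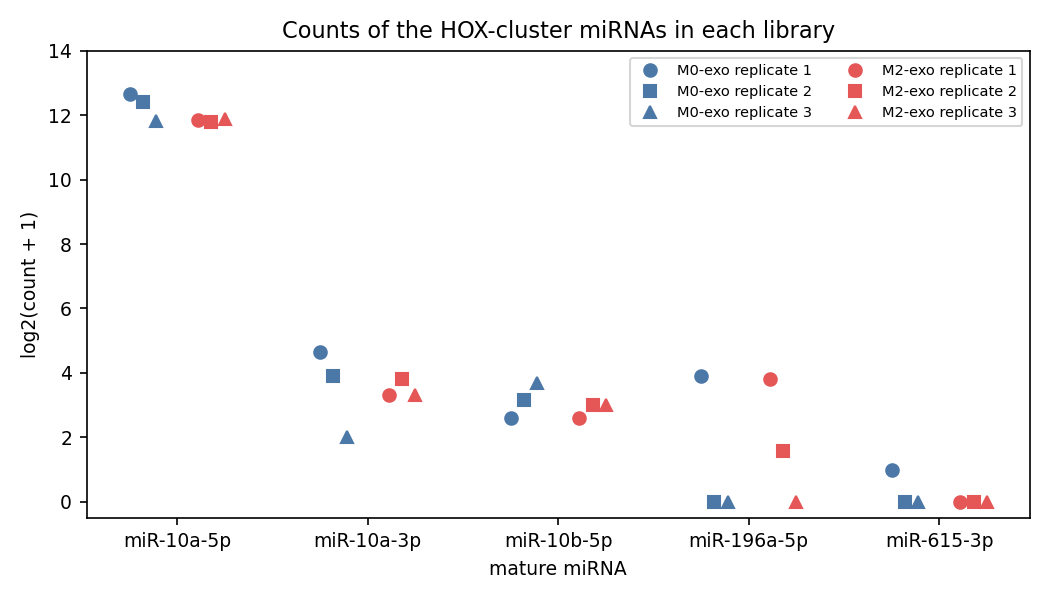
Counts of the HOX-cluster miRNAs in each library, as log2(count + 1), with M0-exo libraries in blue, M2-exo libraries in red and a symbol for each replicate number. miR-10a-5p stood far above the others, and miR-196a-5p was at 0 in 3 of 6 libraries.

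Between M2-exo and M0-exo, 0 of the 3 measured members met the thresholds of the study (a log2 fold change of 0.5 or more in either direction with an unadjusted p below 0.05), against 60 of 598 names, 10%, by edgeR's quasi-likelihood test. At an adjusted p below 0.05 in edgeR the counts were 0 of 3 and 53 of 598, 8.86%. An unadjusted p below 0.05 alone was reached by 87 names and by 0 of the 3 members, and DESeq2 called 61 names and 0 of the 3. With so few members, a count of 0 is near what these shares give. The 60 names were 22 higher and 38 lower in M2-exo. That split depended on the scaling, with 10 higher and 63 lower without scaling beyond the library total, and 32 higher and 35 lower with upper quartile scaling.

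miR-10a-5p was an abundant exosomal miRNA at a similar level in both groups. The M0-exo libraries, replicates 1, 2 and 3 in order, held 6465, 5392 and 3650 of its counts, and the M2-exo libraries held 3710, 3539 and 3798. These were 0.445%, 0.467% and 0.423% of all counts of the M0-exo libraries, against 0.396%, 0.411% and 0.392% of those of the M2-exo libraries. By this share every M2-exo library lay below every M0-exo library, as it did for 84 of 598 names, 14%. Its rank among all names was 23, 24 and 25 for M0-exo, against 25, 26 and 26 for M2-exo.

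The direction of this small difference turned with the scaling. On the library total, miR-10a-5p stood at 4448 ± 219 CPM for M0-exo, against 3996 ± 105 CPM for M2-exo (SD, n = 3 libraries each). With TMM scaling, which sets libraries level on the bulk of their miRNAs, it stood at 4123 ± 191 and 4309 ± 58.1 CPM, and the groups overlapped. The log2 fold change with TMM was 0.06 (SE 0.10, 95% interval -0.13 to 0.25, edgeR adjusted p = 0.762). Without scaling it was -0.15 (edgeR adjusted p = 0.511), and with upper quartile scaling, a setting chosen after seeing the data, it was 0.17 (edgeR adjusted p = 0.51). The median log2 fold change of all 598 names moved along, from 0.03 with TMM to -0.18 without scaling and 0.13 with upper quartile scaling. Relative to that median, miR-10a-5p stood at 0.04, 0.02 and 0.04 in the same order. With TMM and 1 library left out in turn, it stood at -0.11 to 0.14 relative to the median, so that the sign of this relative value turned. The log2 fold change of miR-10a-5p itself stayed at 0.03 to 0.10 in these fits, while the median ran from -0.08 to 0.14. The interval with TMM lies within the threshold of 0.5 on either side.

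**Figure D2:**
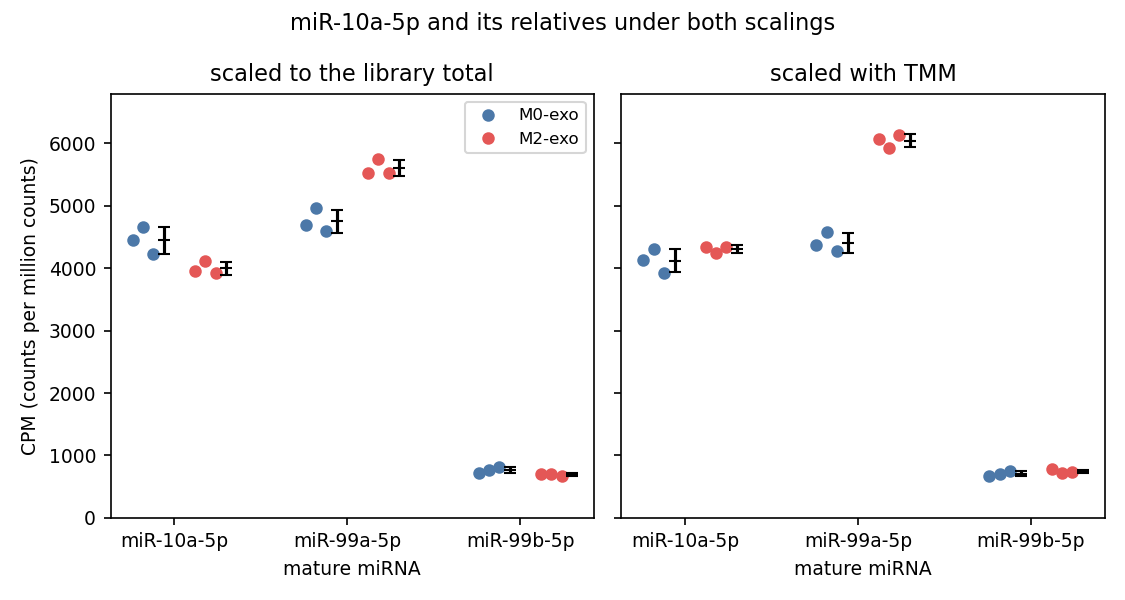
CPM of miR-10a-5p and its relatives miR-99a-5p and miR-99b-5p in each library (points), scaled to the library total (left) and with TMM (right), with the mean and SD of the 3 libraries of a group beside them. miR-10a-5p was lower in M2-exo on the library total (3996 against 4448 CPM) and overlapped between groups with TMM. The mean of miR-99a-5p was higher in M2-exo on the library total (5600.3 against 4753 CPM) and with TMM (6040.1 against 4406 CPM).

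**Figure D3:**
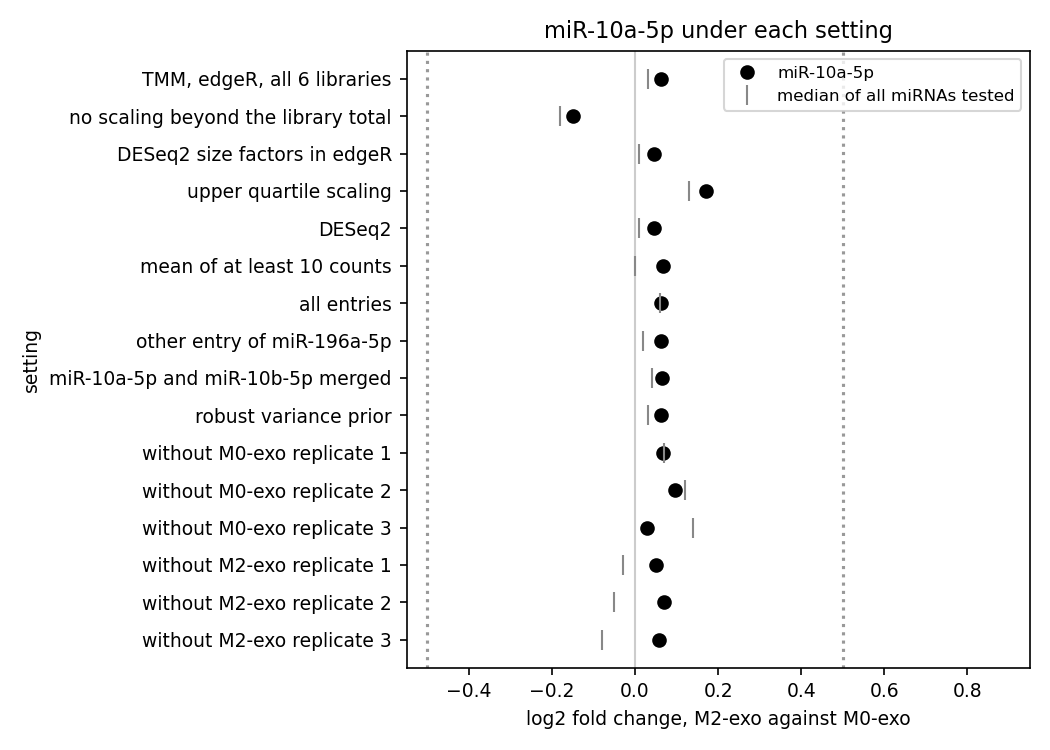
Log2 fold change of miR-10a-5p in M2-exo against M0-exo under each setting (points) beside the median of all miRNAs tested under that setting (grey marks), with dotted lines at the threshold of 0.5 in both directions. The values ran from -0.15 without scaling to 0.17 with upper quartile scaling, and scaling moved the median in the same direction.

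Around it in abundance, miR-151-5p at a mean of 4401 CPM and miR-2137 at 3670.4 CPM stood directly above and below miR-10a-5p at 4222 CPM on the library total. Over the 6 libraries miR-151-5p ranged from 3811 to 5209 CPM and miR-2137 from 2358 to 5100 CPM, and both ranges overlapped that of miR-10a-5p, 3916 to 4667 CPM. Among 241 names with a mean of at least 10 counts, the 3 most like miR-10a-5p across the 6 libraries, by Pearson correlation of log2(TMM CPM + 1), were miR-5126 (r = 0.996), miR-322-3p (r = 0.904) and miR-340-5p (r = 0.865). These are the highest of many correlations over 6 points that share their scaling factors, and are given as a description. All 3 were far less abundant, the closest, miR-5126, having a mean of 43.6 TMM CPM for M0-exo, against 62.3 for M2-exo. Their log2 fold changes, 0.51, 1.12 and 0.62 in the same order, were also larger than the 0.06 of miR-10a-5p. The correlation does not measure the size of a change.

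The opposite arm of the hairpin was rare. For miR-10a-3p the M0-exo libraries held 24, 14 and 3 counts, against 9, 13 and 9 for M2-exo. It made up 0.370%, 0.259% and 0.0821% of the counts of both arms for M0-exo, against 0.242%, 0.366% and 0.236% for M2-exo, so that the groups overlapped (two-sided exact permutation p = 0.9, smallest possible 0.1). The lowest share, in M0-exo replicate 3, rested on 3 counts, with an exact interval of 0.0169% to 0.240%. In all 6 libraries the 5p arm, the guide strand, held nearly all counts of the hairpin.

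miR-99a-5p, miR-99b-5p and miR-100-5p descend from the same ancestral family as miR-10 and carry its core shifted by 1 base. In contrast to miR-10a-5p, miR-99a-5p was higher in M2-exo. The M0-exo libraries held 6825, 5731 and 3974 of its counts, against 5182, 4944 and 5359 for M2-exo. Its log2 fold change was 0.45 (SE 0.09, edgeR adjusted p = 3.04e-05), under the fold threshold of 0.5. Without scaling it was 0.24 (edgeR adjusted p = 0.111), and with upper quartile scaling 0.56 (edgeR adjusted p = 0.000803), which met the thresholds. Relative to the median of all names it was 0.43 with TMM, 0.41 without scaling and 0.43 with upper quartile scaling. With TMM and 1 library left out in turn, miR-99a-5p stood at 0.30 to 0.53 relative to the median. For miR-99b-5p the log2 fold change was 0.07 (SE 0.14) with TMM and turned to -0.15 without scaling. For miR-100-5p it was -0.11 (SE 0.37), and 0.20 without M0-exo replicate 2.

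Ratios of counts within a library need no scaling. There were 0.947, 0.941 and 0.918 counts of miR-10a-5p per count of miR-99a-5p for M0-exo, against 0.716, 0.716 and 0.709 for M2-exo. The groups lay apart, at means of 0.936 ± 0.0151 and 0.713 ± 0.00414 (SD, n = 3 libraries each, two-sided exact permutation p = 0.1, the smallest that 3 against 3 libraries can give, and 0.5 after Benjamini-Hochberg adjustment over 5 shares and ratios). The difference was -0.39 on the log2 scale. Such a separation was common, since the ratio of miR-10a-5p to another miRNA was lower in every M2-exo library for 33 of the 240 other names averaging at least 10 counts, 13.8%, and higher in every M2-exo library for 51 of 240, 21.2%. Against miR-99b-5p the ratio was 6.20, 6.09 and 5.21 for M0-exo, against 5.60, 5.90 and 5.90 for M2-exo, and the groups overlapped (exact permutation p = 1). Against miR-100-5p, which had 38 to 102 counts in a library, it ranged from 52.9 to 96.1 for M0-exo, against 67.5 to 93.1 for M2-exo (exact permutation p = 0.7). The ratios were chosen after seeing the data.

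**Figure D4:**
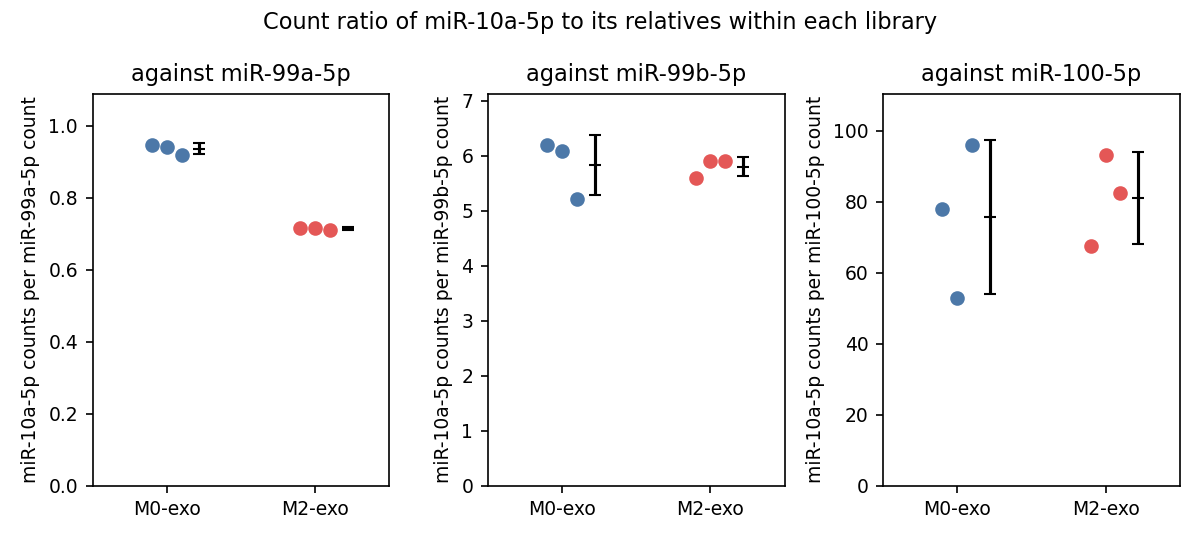
Counts of miR-10a-5p per count of miR-99a-5p, miR-99b-5p and miR-100-5p in each library (points), with the mean and SD of the 3 libraries of a group beside them and each vertical axis starting at 0. The ratio to miR-99a-5p was 0.918 to 0.947 for M0-exo, against 0.709 to 0.716 for M2-exo, while the other ratios overlapped between groups.

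miR-10b-5p, the copy in the HoxD cluster, was near the floor. The M0-exo libraries held 5, 8 and 12 of its counts, against 5, 7 and 7 for M2-exo, or 3.44 to 13.9 CPM and 5.33 to 8.14 CPM on the library total. The groups overlapped, and the lowest and highest values were both in M0-exo. The log2 fold change was 0.00 (SE 1.36, 95% interval -2.67 to 2.67, edgeR adjusted p = 1), an interval that leaves changes of several fold in either direction undetectable at this depth.

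Within the miR-10 pair, miR-10b-5p was a trace. Its share of the counts of miR-10a-5p plus miR-10b-5p was 0.0773%, 0.148% and 0.328% for M0-exo, against 0.135%, 0.197% and 0.184% for M2-exo. The exact intervals of the lowest and the highest share were 0.0251% to 0.180% and 0.169% to 0.572%. The means, 0.184% ± 0.129 and 0.172% ± 0.0331 (SD, n = 3 libraries each), did not differ beyond the spread (two-sided exact permutation p = 0.9, smallest possible 0.1). Because the pair differs by U12A alone, and how reads with a mismatch were counted is not given in the sources used here, the split between the copies is uncertain at such low counts. Its neighbours in abundance were miR-6912-5p and miR-872-3p, both at 0 in at least 1 library.

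miR-196a-5p rested on few reads, nearly all from 1 library in each group. The entry with the highest total, that of mir-196a-2, held 14, 0 and 0 counts for M0-exo, against 13, 2 and 0 for M2-exo. M0-exo replicate 1 and M2-exo replicate 1 together held 93.1% of its 29 counts, and each group had a library at 0. In those 2 libraries the level was 9.63 CPM (95% interval 5.27 to 16.2) and 13.9 CPM (7.38 to 23.7) on the library total, and these intervals overlap. The log2 fold change was 0.91 (SE 1.90, 95% interval -2.81 to 4.62, edgeR adjusted p = 0.835). Without M2-exo replicate 1 its sign turned, to -1.28 (edgeR adjusted p = 0.909).

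The other entry of the same mature miRNA, that of mir-196a-1, gave another picture. It held 0 counts for all 3 M0-exo libraries, against 13, 2 and 0 for M2-exo. The entries thus held the same counts in 5 of 6 libraries and differed in M0-exo replicate 1, with 14 counts against 0. With the mir-196a-1 entry in its place, miR-196a-5p met the study's thresholds (unadjusted p = 0.0408), at an edgeR adjusted p of 0.298. With the mir-196a-2 entry kept and another scaling, prior or tool (edgeR or DESeq2), or 1 library left out, the adjusted p ranged from 0.371 to 0.937. For the mir-196a-1 entry alone, the M2-exo mean was 5.87 TMM CPM, 2.34-fold the mean of 2.51 TMM CPM worth 3 counts in M0-exo. Without M2-exo replicate 1 that mean was 1.20 TMM CPM, below the level worth 3 counts, and no fold is given. The 2.34-fold is no lower bound for the miRNA, since the mir-196a-2 entry held 14 counts in M0-exo replicate 1. It also leaves out the counting error of M2-exo. The mature sequence is the same for both entries, and how reads were divided between hairpins is not given in the sources used here.

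**Figure D5:**
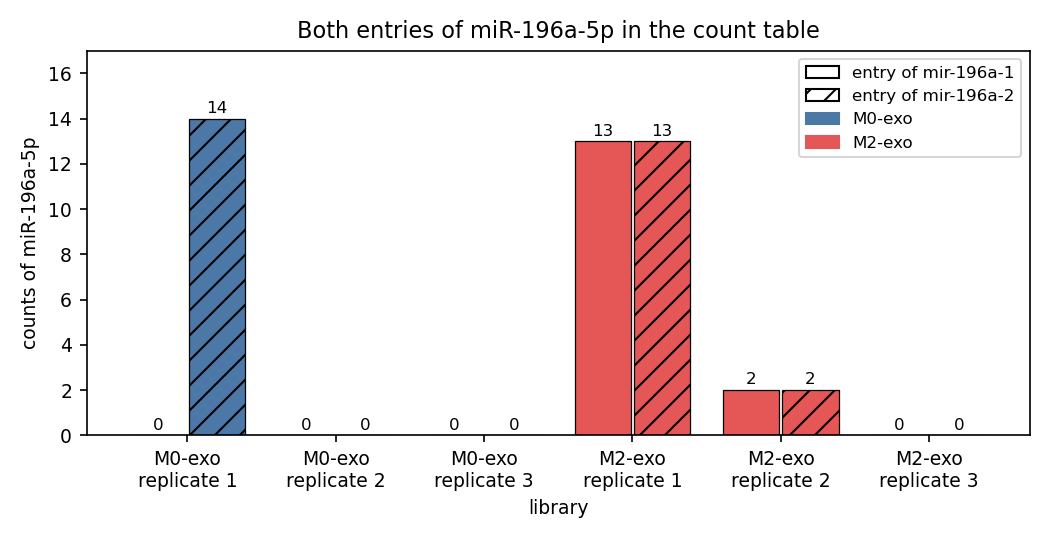
Counts of miR-196a-5p in each library under its entry for mir-196a-1 (plain bars) and for mir-196a-2 (hatched bars), with M0-exo in blue and M2-exo in red. The entries were equal except in M0-exo replicate 1, with 0 counts in one and 14 in the other.

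Of 35 names with more than 1 entry, 19 had entries that differed in at least 1 library. After the counts of miR-196a-5p had been seen, names were sought with 0 counts in 1 entry and at least 10 in another within a library, which 29 of the 35 had the counts to show. Besides miR-196a-5p, with which the search began, miR-1843b-5p was found. miR-1843b-5p had 19 counts in M0-exo replicate 1 in 1 entry and 0 in the other.

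Of the 11 names followed from the HOX clusters, with the other arms and miR-615 of the HoxC cluster included, 5 were in the analysis. miR-615-3p had 1 count, in M0-exo replicate 1, and 0 in the other 5 libraries, which allows up to 3 counts in each, at most 3.49 CPM. No fold is given for it. miR-10b-3p, miR-196a-1-3p, miR-196a-2-3p, miR-196b-3p and miR-615-5p were not analysed here. Among the names measured, miR-10a-5p from the HoxB cluster was the only one above 24 counts in any library.

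Markers fixed for the macrophage lineage were present, as the label says. All 6 of 6 were counted in every library, and their summed level was 1976, 1532 and 1457 CPM for M0-exo, against 1161, 1382 and 1405 CPM for M2-exo, on the library total. TMM scaling lowers the M0-exo levels and raises the M2-exo levels (factors 1.07 to 1.08, against 0.9 to 0.97), so the size of this difference depends on the scaling. miR-155-5p led them in every M0-exo library, with 1312, 898 and 657 counts, and miR-142a-3p in every M2-exo library, with 361, 473 and 548 counts. With TMM, miR-142a-3p had a log2 fold change of 0.45 (SE 0.15, edgeR adjusted p = 0.0408), under the fold threshold of 0.5. miR-146a-5p, at -0.55 (SE 0.35, edgeR adjusted p = 0.492), and miR-142a-5p, at 0.22 (SE 0.33, edgeR adjusted p = 0.761), did not meet the thresholds either. miR-155-5p met the thresholds as lower in M2-exo, with a log2 fold change of -1.04 (SE 0.15, edgeR adjusted p = 1.85e-10). miR-223-3p (log2 fold change 1.60, edgeR adjusted p = 0.0582, and 0.0382 to 0.301 over the alternatives) and miR-21a-5p (0.55, edgeR adjusted p = 0.0258) met them as higher, the latter no longer without scaling (0.33), without M0-exo replicate 3 (0.32) or without M2-exo replicate 3 (0.47). Of the stromal markers, 3 of 5 were counted, at a sum of 19.9 to 25.5 CPM for M0-exo, against 33.7 to 67.0 CPM for M2-exo. miR-143-3p led them, miR-199a-5p was at 0 in 5 of 6 libraries, and miR-199a-3p met the thresholds as higher (edgeR adjusted p = 0.0582), with 1, 0 and 0 counts for M0-exo, against 7, 7 and 19 for M2-exo. Without M2-exo replicate 3 its p was above the threshold, with a fitted log2 fold change of 4.58, against 5.14 with all libraries, values that depend on the prior count. Of the epithelial markers, 2 of 5 were counted, at 44.0 to 71.8 CPM for M0-exo, against 37.3 to 51.5 CPM for M2-exo. miR-200c-3p led them, miR-200a-3p was at 0 in 4 of 6 libraries, and neither met the thresholds.

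Of the serum and red cell markers, 6 of 7 were counted, at a sum of 14434 to 15162 CPM for M0-exo, against 17792 to 22898 CPM for M2-exo. Both miR-486a-5p and miR-486b-5p enter that sum, although their counts were identical in every library (56 to 138), so the same reads may be counted in each. miR-16-5p, which many cell types express, made up 89.3% of that sum in M2-exo replicate 3 and at least 97.9% in each other library. It met the thresholds as higher in M2-exo, with a log2 fold change of 0.60 (SE 0.08, edgeR adjusted p = 1.28e-12). Without scaling its log2 fold change was 0.38, under the threshold of 0.5 (edgeR adjusted p = 5.63e-06). The red cell marker miR-451a had at most 14 counts in a library and was at 0 in M0-exo replicate 2. The liver miRNA miR-122-5p had 63, 59 and 51 counts for M0-exo, against 137, 107 and 2184 for M2-exo. It also met the thresholds, with a log2 fold change of 4.30 with all libraries and 1.61 without M2-exo replicate 3. With a robust variance prior the log2 fold change was again 4.30, but the unadjusted p of 0.0566 was just over the threshold (edgeR adjusted p = 0.368, the highest over the alternatives that gave a p). DESeq2 gave no p for miR-122-5p. miR-196a-5p was at 0 in M2-exo replicate 3, and the part of these other sources in the levels of the HOX-cluster miRNAs was not tested.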

How the data were processed

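Exosomal small RNA of RAW264.7 cells was sequenced in 6 libraries, 3 M0-exo and 3 M2-exo, grouped by their titles. The authors deposited raw counts for each mature miRNA and precursor (638 entries, 598 names). The authors also deposited RPM values, checked to be counts scaled to 1000000 over all entries of a library, within 0.005. Lengths were deposited too. The processing notes name mm39; the aligner, counter and miRNA release are not given in the sources used here.

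Counts of 1 entry per name were fitted in edgeR 4.0.16 (R 4.3.3; TMM, glmQLFit and glmQLFTest with defaults, no covariate), with Benjamini-Hochberg adjustment over 598 names. Intervals of fold changes are 1.96 SE on either side. Shares and ratios were compared by two-sided exact permutation tests (scipy 1.17.1), for which 3 against 3 libraries cannot go below p = 0.1. The fit was tested on simulated data. Counts of same-group libraries varied beyond counting error (chi-square per degree of freedom 7.28 to 29.6), so none was counted as a duplicate.

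The members and lists were chosen with earlier results of these data known. Named miRNAs were the members, the other arms of their hairpins, miR-615, the relatives miR-99a-5p, miR-99b-5p and miR-100-5p, same-seed names, neighbours in abundance, marker lists, and the 3 names most like a member, both averaging at least 10 counts. Alternatives were other scalings, DESeq2 1.42.0, a filter on low counts, other entries, merged copies, a robust prior and leaving out each library.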

Additional observations from a re-analysis of the deposited data

How the results depend on the processing

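The count of names past the study's thresholds was 60, and 51 to 74 without 1 library in turn. It was 27 when the fold threshold was raised to 1 on the log2 scale, and within 1.5 times of 60 under the other 17 alternatives. The count at an adjusted p below 0.05 in edgeR was 53, with 33 to 59 without 1 library (33 without M0-exo replicate 2).

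For miR-10a-5p, 15 of 16 alternatives kept the direction and did not meet the thresholds, with a range of 0.03 to 0.10 without 1 library; it turned to -0.15 without scaling. For miR-10b-5p the log2 fold change lay at 0 and its sign turned in 9 of 14 alternatives, leaving aside the entry merged with miR-10a-5p (0.0640): -0.21 without scaling, -0.0167 with DESeq2 size factors in edgeR, -0.0121 in DESeq2, -0.0024 with all entries, -0.0004 with the other entry of miR-196a-5p, and -0.37 to 0.62 without 1 library. For miR-196a-5p the fitted value was 5.65 with the other entry, which depends on the prior count since M0-exo was at 0, and -1.28 to 5.51 without 1 library. The latter is likewise no bound, since without M0-exo replicate 1 that group was at 0. The causes were not tested beyond these counts. Upper quartile scaling was added after seeing the data, as were the settings for the relatives and markers. For miR-99b-5p the log2 fold change turned to -0.15 without scaling, and for miR-100-5p it was -0.31 to 0.20 without 1 library.

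The difference in the share of miR-10b-5p was -0.0124 percentage points, and -0.0659 to 0.0593 without 1 library. The difference in the ratio of miR-10a-5p to miR-99a-5p was -0.222, and -0.231 to -0.216 without 1 library. To miR-99b-5p it was -0.349 to 0.147 and to miR-100-5p -5.92 to 15.7 without 1 library.

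Same-numbered libraries did not deviate together (correlations -0.043, 0.0163 and -0.0462 over 241 miRNAs), so the numbers were not taken as pairs. With a replicate block, 56 names met the thresholds, 53 of them shared with the unblocked fit, and 52 had an adjusted p below 0.05 in edgeR. With the replicate block the log2 fold changes were 0.06 for miR-10a-5p, 0.17 for miR-10b-5p and 1.69 for miR-196a-5p, and none of the 3 met the thresholds.

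The planned values of miR-196b-5p, its share and its merging with miR-196a-5p were not run, as it was not analysed here. The filter at a mean of 10 counts leaves no value for miR-10b-5p and miR-196a-5p. Depth limits these low members: a count of 0 allowed up to 3.49 CPM.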
